A study of Mus musculus with 14 samples.

Results

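The 5 mouse genes for H3K4 demethylases of the LSD and KDM5 families (*Kdm1a*, *Kdm1b*, *Kdm5a*, *Kdm5b* and *Kdm5c*) were examined in a map of H3K4me1, the monomethyl mark on lysine 4 of histone H3. They were taken by name from the 55413 genes of GENCODE M21 on mm10, of which 21938 were protein-coding. The map held 160144 sites, 160108 of them on chromosomes, and 44 of these lay over the 5 genes and their 10 kb flanks. The rule names the genes and uses no measured value.

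The ChIP-seq libraries for H3K4me1 came from NG3, 1 clone of immortalized mouse embryo fibroblasts (iMEF). The fibroblasts carried floxed *Ash2l* alleles and a CAGG-driven Cre-ER recombinase, exon 4 of both endogenous *Ash2l* alleles was deleted, and a lentiviral construct supplied human ASH2L fused to an FKBP tag. All groups shared this background, the control included. The 12 ChIP libraries came from cells without dTAG and cells given dTAG, the PROTAC that degrades the fusion protein, for 30 min, 2 h, 4 h, 8 h or 16 h, with 2 replicates in each of the 6 conditions. Another 2 libraries were inputs, from the control and from 16 h of dTAG. The deposited table gave 1 set of sites over all libraries, with start and end only. No gene could therefore be compared between times, no value had a replicate error, the table gave no depth per library, and the cell type could not be checked against markers of expression.

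LSD1, encoded by *Kdm1a*, and LSD2, encoded by *Kdm1b*, are flavin-dependent amine oxidases that remove methyl groups from mono- and dimethylated H3K4. The KDM5 enzymes use iron and 2-oxoglutarate through a JmjC domain and act on trimethylated and dimethylated H3K4, so that H3K4me1 can remain as their product. H3K4me1 is known from enhancers and from the shoulders of active promoters, whereas the nucleosomes next to the start of an active CpG island promoter mostly carry H3K4me3. These roles are background, and the activity of the enzymes was not measured here.

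The sequence at the starts is shown first, since all 5 genes had a CpG island within 1 kb of the start. The island of *Kdm5c*, from +387 to +766, lay beyond the end of its printed window. RefSeq promoter windows of GRCm38.p6 matched 4 of the 5 genes and *Kdm5d*, the paralogue of *Kdm5c* on Y. Each run below has 250 bases before and 30 bases from the RefSeq transcription start site (TSS) on, 5′ to 3′ in the direction of transcription, with CpG dinucleotides in capitals. The windows were chr4:136602694-136602973 on the minus strand for *Kdm1a* and, on the plus strand, chr13:47043249-47043528 for *Kdm1b*, chr1:134559928-134560207 for *Kdm5b*, chrX:152232977-152233256 for *Kdm5c* and chrY:897538-897817 for *Kdm5d*.
Kdm1a: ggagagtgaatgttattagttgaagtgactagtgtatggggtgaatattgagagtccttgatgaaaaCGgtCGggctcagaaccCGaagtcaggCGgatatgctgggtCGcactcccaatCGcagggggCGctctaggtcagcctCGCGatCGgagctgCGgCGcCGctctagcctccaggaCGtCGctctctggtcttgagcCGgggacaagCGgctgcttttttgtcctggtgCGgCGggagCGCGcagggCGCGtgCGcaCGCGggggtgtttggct
Kdm1b: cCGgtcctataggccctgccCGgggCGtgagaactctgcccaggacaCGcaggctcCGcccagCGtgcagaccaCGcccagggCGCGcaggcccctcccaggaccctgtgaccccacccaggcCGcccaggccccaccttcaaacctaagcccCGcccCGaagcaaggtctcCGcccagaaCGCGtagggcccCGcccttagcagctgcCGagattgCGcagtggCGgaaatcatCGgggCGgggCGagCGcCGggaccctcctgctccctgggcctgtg
Kdm5b: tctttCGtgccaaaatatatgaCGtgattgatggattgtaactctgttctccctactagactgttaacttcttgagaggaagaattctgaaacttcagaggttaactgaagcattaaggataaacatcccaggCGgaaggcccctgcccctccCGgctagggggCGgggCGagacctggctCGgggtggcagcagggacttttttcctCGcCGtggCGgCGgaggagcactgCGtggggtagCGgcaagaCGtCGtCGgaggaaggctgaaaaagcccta
Kdm5c: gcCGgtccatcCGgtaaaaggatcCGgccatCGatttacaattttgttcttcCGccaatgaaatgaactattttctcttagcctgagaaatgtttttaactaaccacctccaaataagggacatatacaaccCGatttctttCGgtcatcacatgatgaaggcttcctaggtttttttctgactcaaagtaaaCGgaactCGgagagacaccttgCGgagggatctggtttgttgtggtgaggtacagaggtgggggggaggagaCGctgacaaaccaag
Kdm5d: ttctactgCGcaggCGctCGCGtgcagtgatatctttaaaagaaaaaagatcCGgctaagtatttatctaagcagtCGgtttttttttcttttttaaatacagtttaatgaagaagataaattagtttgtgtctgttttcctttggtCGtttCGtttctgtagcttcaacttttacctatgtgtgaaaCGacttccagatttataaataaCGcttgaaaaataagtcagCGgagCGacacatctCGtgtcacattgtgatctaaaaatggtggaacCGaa

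The windows of *Kdm1a* and *Kdm1b* were the richest in CpG, with 21 and 22 in the 250 bases before the start. *Kdm5b* had 13, *Kdm5d* 13 and *Kdm5c* 10, against a median of 6 (quartiles 2 and 16) over 32851 promoters. Only in *Kdm5b* did an H3K4me1 site reach into the printed window, over 97 of its 280 bases. The RefSeq start of *Kdm5c* lay 207 bp inside the most upstream GENCODE start, so its window lay mostly downstream of that start. The motifs named next, chosen after the sequences were seen, were searched on both strands of the full 300-base windows. The GC box GGGCGG was found 6 times in *Kdm1b* and 1 time in *Kdm5b* (35.7% of all promoters had it), and CCAAT 1 time each in *Kdm1a* and *Kdm5c* (37.4%). The ETS core CCGGAA was in none of the 5 windows (14.9%), and the YY1 motif AAGATGGC was found 1 time in *Kdm5c* (2.75%). A match of letters is not a binding site.

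All 5 genes had an H3K4me1 site within 1 kb of the most upstream annotated TSS, and in every case it reached at least to +1425 in the gene. Such a site was found in 63.9% of all protein-coding genes and in 93.0% of those with a CpG island within 1 kb. An island was within 1 kb of all 5 starts, against 53.9% of protein-coding genes, so the island genes are the closer background. The arrangement around the start nevertheless took 3 forms. A site covered the TSS of *Kdm5a* and *Kdm5b*, the TSS of *Kdm1b* lay in a short gap between 2 sites, and the TSS of *Kdm1a* and *Kdm5c* had a site downstream only. These forms are those of the set pooled over control and dTAG libraries. The paper reports that gains of H3K4me1 after dTAG were nearly all at promoters. Which of the sites at these starts were present without dTAG cannot be told from the pooled set. The paper also lists sites that changed at each time point, and that list was not used here.

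**Figure D1:**
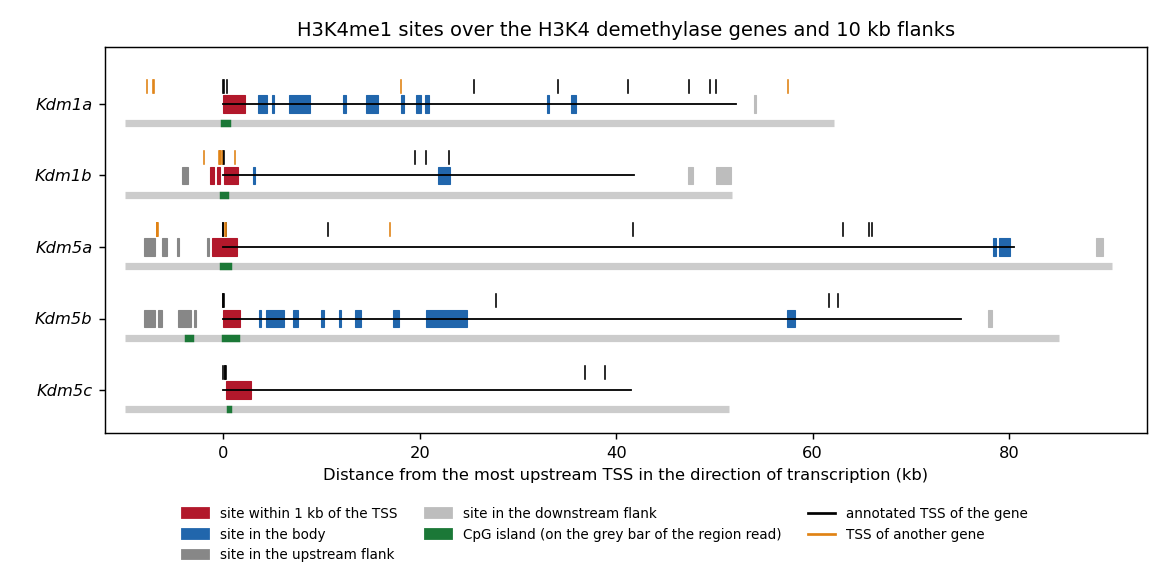
H3K4me1 sites over the 5 genes and 10 kb on either side, against the distance from the most upstream TSS in kb, with sites coloured by their place, CpG islands in green on the grey bar of the region read, TSSs of the gene as black ticks and TSSs of other genes as orange ticks. *Kdm1a* and *Kdm5b* have rows of sites in the 5′ part of the gene, *Kdm5a* has a site-free stretch of 76949 bp, and *Kdm5c* has 1 site in all.

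The LSD genes are described first. *Kdm1a* (ENSMUSG00000036940.15, chr4:136550540-136602723, minus strand) had a site of 2172 bp that began 32 bp after the most upstream TSS and ended at +2203. Before it, no site was found for 11110 bp, past the end of the 10 kb flank. The site covered 96.8% of the first kb of the gene and 0% of the kb before it. It therefore lay wholly on the transcribed side, and 2 of the 3 annotated starts in the first kb, at +36 and +415, were under it. The island of *Kdm1a*, 861 bp from -183 to +677, was 75.0% covered, with its upstream end free.

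*Kdm1b* (ENSMUSG00000038080.17, chr13:47043499-47085279, plus strand) was the one gene with a site on both sides of a free start. The gap was 446 bp, 357 bp before the TSS and 89 bp from the TSS on, between a site of 232 bp and one of 1385 bp. A gap with a site within 1 kb on both sides was found in 13.7% of protein-coding genes and 23.6% of island genes, and its median width over these 3009 genes was 423 bp (quartiles 339 and 572). The gap of *Kdm1b* was thus of usual width. Both of its starts in the first kb, at 0 and +71, were free, and its island of 821 bp was 50.8% covered, the lowest share among the islands at the 5 starts. Over 10854 islands within 1 kb of a most upstream protein-coding TSS the median share was 98.2% and the lower quartile 54.0%. Of these islands 49.5% were fully covered. A further site of 415 bp lay from -1348 to -934.

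The upstream side of *Kdm1b* also belongs to *Tpmt*, the gene for thiopurine methyltransferase, which is transcribed the other way. Of its 7 annotated starts, 5 lay from 375 to 156 bp before the TSS of *Kdm1b*, 1 lay at -1918 and 1 at +1238. The 232-bp site covered 2 of the 5, and the 1385-bp site covered the one at +1238. The site before the TSS of *Kdm1b* is therefore downstream of the gap for *Tpmt*, and to which gene it relates cannot be told apart.

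The KDM5 genes held both the covered starts and the barest locus. *Kdm5a* (ENSMUSG00000030180.15, chr6:120364124-120444574, plus strand) had the widest of these, 2601 bp from -1175 to +1425, which covered the whole kb on either side, all 3 starts in the first kb and 100% of the 1048-bp island. A TSS under a site was found in 39.5% of protein-coding genes and 56.6% of island genes. Inside this site also lay 2 starts of *Ccdc77*, a coiled-coil gene on the other strand, at +232 and +250. The other 6 starts of *Ccdc77*, from -6652 to -6784, were free, the nearest site edge being 127 bp away. *Kdm5a* was the one gene whose first site extended as far as 1 kb upstream. This side also belongs to *Ccdc77*, from +250 to at least -6784. To which of the 2 genes the sites there relate cannot be told apart.

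*Kdm5b* (ENSMUSG00000042207.17, chr1:134560171-134635285, plus strand) had a site of 1742 bp from -60 to +1681. It covered 100% of the first kb but 6% of the kb before the TSS, and all 3 starts in the first kb. Although its TSS counted as covered, the site was nearly as one-sided as that of *Kdm1a*. The island of *Kdm5b* ran 1664 bp from -90 to +1573, and 98.2% of it was covered, so the site and the island had nearly the same ends. A second island of 825 bp, from -3911 to -3087, held no annotated start and was 72.1% covered by a site of 1284 bp.

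*Kdm5c* (ENSMUSG00000025332.14, chrX:152233020-152274535, plus strand) had 1 site, 2536 bp from +281 to +2816. It covered 71.9% of the first kb and 0% of the kb before the TSS, and the free stretch around the start was 22978 bp, 22697 bp of it upstream. All 4 annotated starts of the first kb, at 0, +209, +234 and +252, were free, the last by 29 bp. The island of 380 bp, from +387 to +766, lay wholly under the site. The order of island and start thus differed from the other 4 genes, whose islands reached upstream of the TSS.

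**Figure D2:**
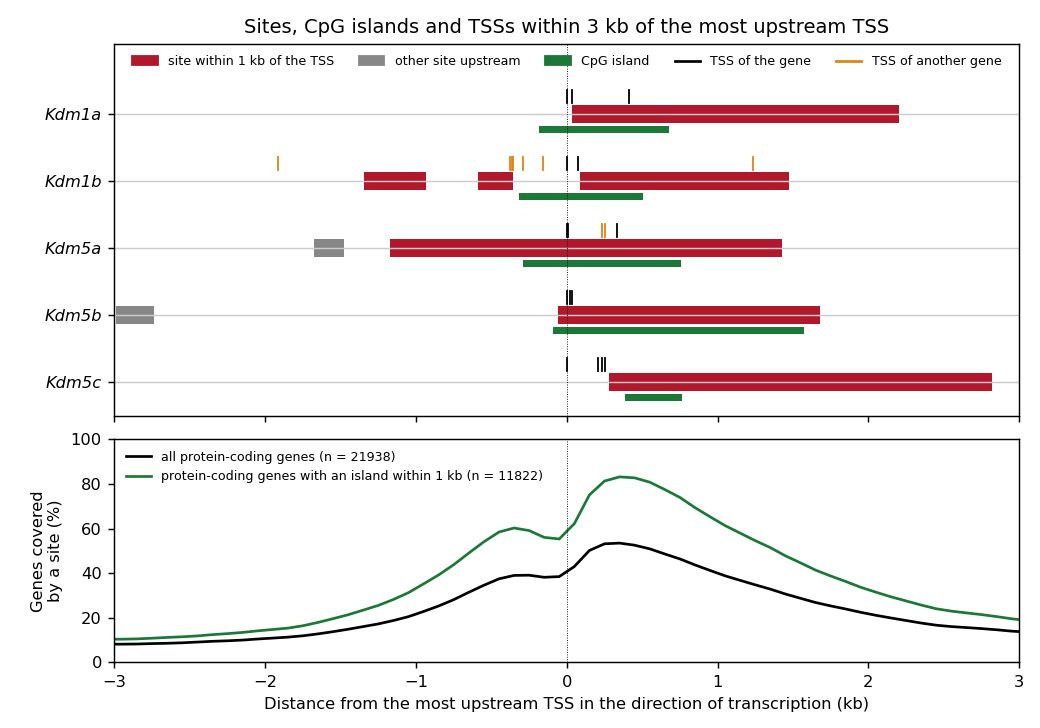
Upper panel, sites, CpG islands and TSSs of the 5 genes from 3 kb before to 3 kb after the most upstream TSS; lower panel, percent of protein-coding genes covered by a site in bins of 100 bp over the same distance. The sites of *Kdm1a*, *Kdm5b* and *Kdm5c* begin between -60 and +281, and the profile of island genes is higher after the TSS (83.2% in the bin from +300) than before it (60.3% in the bin from -400).

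More bases were covered in the kb after the TSS than before it in 4 of the 5 genes, and *Kdm5a* was equal at full coverage. The share was 43.2% over protein-coding genes and 64.9% over island genes. A free start with a site downstream only, as in *Kdm1a* and *Kdm5c*, was found in 8.69% and 11.5%. With 5 genes these counts describe the genes and were not tested. Over all protein-coding genes a median of 20% of the kb before and 54.8% of the kb after the TSS was covered, and over island genes 53.45% and 87.6%. *Kdm1a*, *Kdm1b*, *Kdm5b* and *Kdm5c* were below the island median upstream, and *Kdm5c* alone was below it downstream.

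The sites nearest the starts had the highest CpG content of their loci, and in *Kdm1a* and *Kdm5a* they were also the widest. In *Kdm5b* body sites of 4114 and 1912 bp were wider, and in *Kdm1b* a site of 1505 bp in the downstream flank. The 5 sites measured 1385 to 2601 bp (median 2172). Over all 16697 sites within 1 kb of a protein-coding TSS the median was 1241 bp. Counted in that way, the 5 genes had 7 sites of 232 to 2601 bp, with a median of 1742 bp. The sites of 232 and 415 bp at *Kdm1b* were below 1241 bp. Together the 5 sites nearest the starts made 26.8% of the 38910 covered bases of the 5 loci, from 12.1% in *Kdm5b* to 38.5% in *Kdm5a* and 100% in *Kdm5c*. Their CpG content was 9.18 per 100 bp in *Kdm5b*, 5.92 in *Kdm1b*, 5.42 in *Kdm5a*, 5.02 in *Kdm1a* and 2.37 in *Kdm5c*. The 23 body sites had a median of 0.99 CpG per 100 bp and the highest had 2.20, and 0 of the 23 overlapped an island. Of the 9 sites of the upstream flanks, the 1284-bp site at the second island of *Kdm5b* had 4.83.

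**Figure D3:**
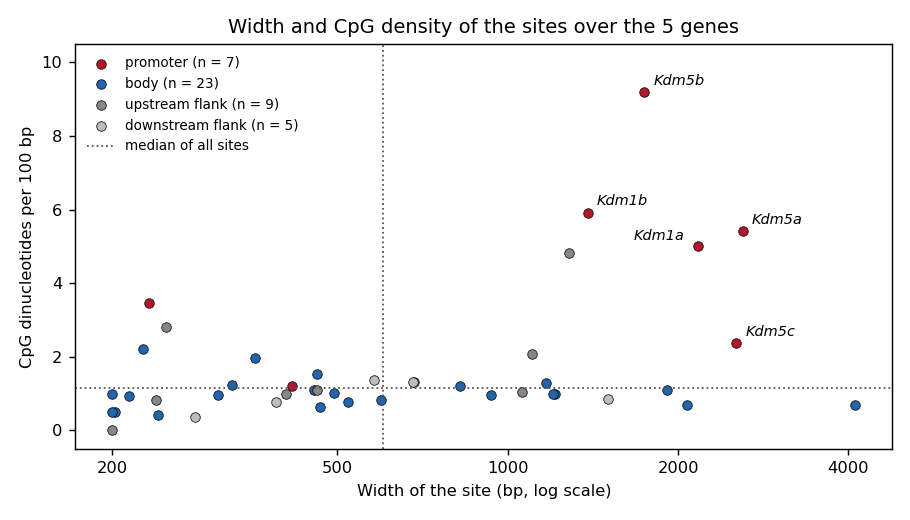
Width of each of the 44 sites in bp on a log scale against its CpG dinucleotides per 100 bp, coloured by place, with dotted lines at the medians of all sites (603 bp and 1.16). The 5 labelled sites nearest the starts lie above both medians, and the 4114-bp body site of *Kdm5b* is the widest of all but has 0.68 CpG per 100 bp.

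Of the 34 distinct annotated starts of the 5 genes, 15 lay in the first kb and 19 further in. Sites covered 8 of the 15, against 50.8% of such starts over all protein-coding genes. Of the 19 internal starts 6 belonged to coding transcripts, and the one nearest to its most upstream TSS lay at +10693. The share covered over all protein-coding genes was 23.5%, which counts every start at least 1 kb in, also those closer to the promoter. Of the 19 internal starts 1 was covered, and 2 were within 1 kb of a site. The covered one was that of the transcript Kdm1b-202 at +22959, under a site of 1203 bp in intron 11. The other lay 958 bp from a site, at +34116 in *Kdm1a* (Kdm1a-207). None of the 19 had an island within 1 kb. The farthest from any site were Kdm5a-203, by 36696 bp, and Kdm5c-205, by 36077 bp.

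The gene bodies, read from 1 kb after the TSS to the gene end, differed among the genes. Sites covered 15.2% of the body of *Kdm1a*, 13.4% of *Kdm5b*, 4.60% of *Kdm1b*, 4.48% of *Kdm5c* and 2.40% of *Kdm5a*. The median of the 5 was 4.60%, near the 4.43% over 20350 protein-coding genes with a body and the 5.03% over 2753 genes within the length range of the 5, and below the 7.73% over island genes. *Kdm1b*, *Kdm5c* and *Kdm5a* exceeded 36.7%, 36.1% and 24.4% of island genes. For *Kdm5c* the covered bases were the end of the site at the start. *Kdm1a* and *Kdm5b* lay above the upper quartile of 12.4% of the genes of like length, and *Kdm5a* lay between its lower quartile of 1.57% and its median.

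In *Kdm1a* the body held 10 sites of 202 to 2070 bp, all in introns by their centre, 3 in intron 1, 5 in intron 2 and 1 each in introns 7 and 8. Intron 1, of 9101 bp, was 54.2% covered, the site at the start included. The last of these sites ended at +35888, and from there to a 280-bp site beyond the gene end 18113 bp were free. In *Kdm5b* 8 of the 9 body sites lay in intron 1. This intron is 24611 bp long and was 39.6% covered, again with the site at the start included. One of the 8 body sites, 4114 bp from +20680 to +24793, was wider than 98.4% of all sites. The ninth, of 823 bp, was centred in exon 19 of 27, after 32574 bp without a site.

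*Kdm1b* had 2 body sites, of 200 bp in intron 1 and of 1203 bp in intron 11. *Kdm5a* also had 2, of 308 and 1169 bp, and both lay in the last exon, exon 28, of which they covered 26.4%. Between the site at the start and these, 76949 bp were free, 96.9% of the body. Of the genes of like length, 83.1% had a smaller share of the body in their longest free stretch. In *Kdm5c* the free stretch ran on from +2817 to +93931, 91115 bp, of which 38699 bp lay in the gene. *Kdm5a* and *Kdm5c* thus shared a body without sites from the end of the first site to the last exon or the gene end.

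**Figure D4:**
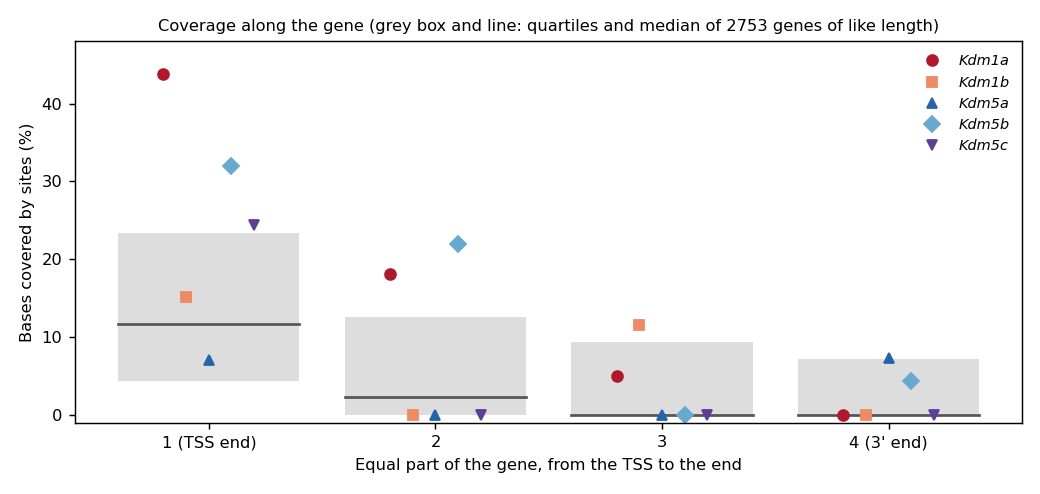
Percent of bases covered by sites in 4 equal parts of each gene, from the TSS end (1) to the 3′ end (4), with the quartiles (grey box) and median (line) over 2753 protein-coding genes of like length. In part 1 *Kdm1a* (43.8%), *Kdm5b* (32.0%) and *Kdm5c* (24.4%) lie above the upper quartile of 23.4%, and *Kdm5a* (7.09%) lies below the median of 11.7%.

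Cut into 4 equal parts, *Kdm1a* was covered by 43.8%, 18.1%, 5.07% and 0% from the TSS end on. *Kdm5b* had 32.0%, 21.9%, 0% and 4.38%. *Kdm1b* had 15.2% and 11.5% in parts 1 and 3 and no site in the others. In *Kdm5a* the values were 7.09% and 7.34% in the first and last part, and in *Kdm5c* 24.4% in the first, with 0% between and after. The genes of like length had medians of 11.7%, 2.30%, 0% and 0%, so that coverage weighted to the TSS end was the usual arrangement, and *Kdm5a* was the one gene whose last part was covered more than its first.

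**Figure D5:**
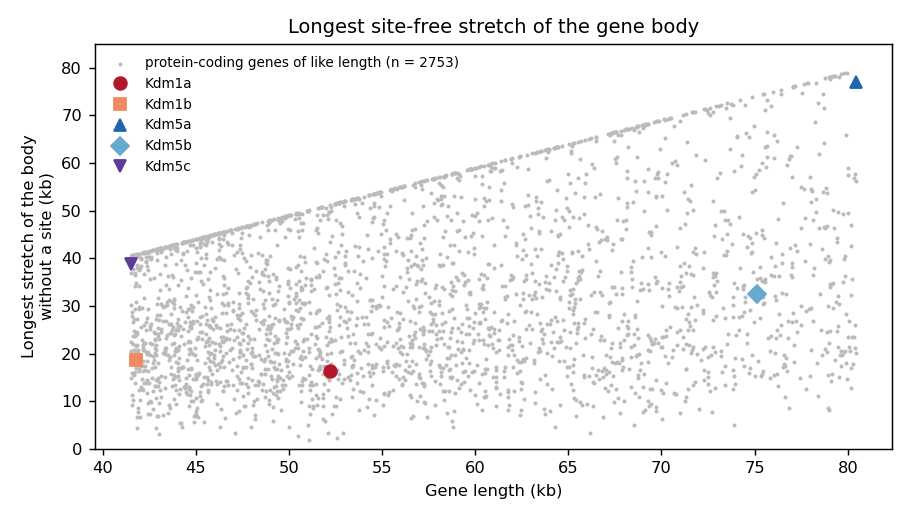
Longest stretch of the body without a site in kb against gene length in kb, for the 5 genes and 2753 protein-coding genes of like length (grey). *Kdm5a* (76949 bp) and *Kdm5c* (38699 bp) lie near the upper edge, where the stretch takes nearly the whole body. *Kdm1a* (16295 bp) and *Kdm1b* (18723 bp) lie below the lower quartile of 19575 bp. As a share of the body, *Kdm1a* (31.8%) is below the lower quartile of 35.2% and *Kdm1b* (45.9%) is above it.

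The flanks separated the genes in another way. In the 10 kb before the TSS, sites covered 31.8% of *Kdm5a*, 30.6% of *Kdm5b*, 13.3% of *Kdm1b* and 0% of *Kdm1a* and *Kdm5c*, against a median of 6.22% over protein-coding genes and 10.75% over island genes. *Kdm5a* and *Kdm5b* each had 5 sites there, the one at the start included, more coverage than in 86.7% and 85.6% of island genes. The upstream flank of *Kdm5a* is shared with *Ccdc77*. An upstream flank without any site, as in *Kdm1a* and *Kdm5c*, was found in 11.9% of island genes. Among the island genes on X, where *Kdm5c* lies, the share was 44.8%. In the 10 kb after the gene end the values were 20.85% for *Kdm1b*, 6.81% for *Kdm5a*, 3.89% for *Kdm5b*, 2.80% for *Kdm1a* and 0% for *Kdm5c*.

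Other annotated genes started within 3 of the 5 loci. Around *Kdm1a* these were *Luzp1*, 5275 bp beyond the gene end, *Tex46*, *Gm12986* and *Gm22180*, 7083 to 7714 bp before the TSS, and the pseudogene *Gm12987* at +18063, none of them covered. A 227-bp site began 66 bp from the start of *Gm12987*. In *Kdm5a* the small nuclear RNA gene *Gm24592* at +17015 was free of sites. No other gene started within 10 kb of *Kdm5b* or *Kdm5c*. The start nearest to the outer 2 upstream sites of *Kdm5b* was that of *Mgat4e*, a gene named here after its values were seen, which lay beyond the flank, 2471 and 3832 bp from them.

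*Kdm5c* is on X, and its values are given beside those of X. Of the 326 island genes on X, 78.5% had a site within 1 kb of the TSS, against 93.4% of 11495 on autosomes, and 31.0% of X bodies had no site against 10.8%. A locus with at most 1 site, as in *Kdm5c*, was found in 30.1% of the island genes on X and 9.05% of all island genes. A kb before the TSS without covered bases was found in 54.9% and 18.6%. The sparse locus of *Kdm5c* was thus more common on X, and the body coverage of 4.48% was above that of 70.0% of X island genes. *Kdm5d* (chrY:897788-956786, plus strand) had no island and no site over 58999 bp and its flanks. The part of the chromosome in these values was not tested, nor was it tested whether sites on Y could be found in this map.

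Sequence motifs that factors of fibroblast enhancers recognise were counted in the central 200 bp of the sites. The AP-1 motif TGACTCA, read on either strand, was in 2 of the 44 sites, against 9.70% of all sites, and the TEAD motif GGAATG, read likewise, in 5, against 14.4%. Over sites within 1 kb of a protein-coding TSS the shares were 3.28% and 9.39%, and over the other sites 10.4% and 15.0%. Of the 44 sites 7 were within 1 kb of the TSS. Matches outside the central 200 bp do not enter these counts. One AP-1 match lay in intron 1 of *Kdm1a* and the other in the upstream flank of *Kdm5a*, in a site 93.7% of which is repeat sequence. Both are shown because no other site over these genes had the motif at its centre. The bases are chr4:136598623-136598822 for *Kdm1a* and chr6:120359432-120359631 for *Kdm5a*, of GRCm38.p6 on the plus strand, with the motif in capitals.
Kdm1a: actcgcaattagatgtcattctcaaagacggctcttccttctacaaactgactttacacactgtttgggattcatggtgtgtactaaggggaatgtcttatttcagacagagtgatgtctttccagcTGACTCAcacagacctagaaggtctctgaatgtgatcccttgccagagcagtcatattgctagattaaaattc
Kdm5a: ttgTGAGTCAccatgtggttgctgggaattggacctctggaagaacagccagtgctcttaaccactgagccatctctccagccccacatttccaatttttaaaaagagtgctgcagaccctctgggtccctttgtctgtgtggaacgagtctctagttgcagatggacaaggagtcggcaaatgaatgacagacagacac

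The pattern over 5 kb on either side of the TSS was compared with all other protein-coding genes by the share of covered bases that 2 genes have in common, the Jaccard index, over 21933 genes. *Kdm5c* was most like *Psmd8* (0.96) and *Sh2b2* (0.95), *Kdm5a* most like *Emc10* (0.85) and *Slc16a14* (0.84), and *Kdm1a* most like *Mars2* (0.84) and *Dpf1* (0.83). The nearest to *Kdm5b* were *Pla2g16* (0.66) and *Ppm1m* (0.62), and to *Kdm1b* *Bnip3l* (0.65) and *Wdr73* (0.64). Among the 5 genes the highest index was 0.51, between *Kdm1a* and *Kdm5c*, and the lowest 0.26, between *Kdm5a* and *Kdm5c*. The index was 0.30 for *Kdm1a* and *Kdm1b*, and among the KDM5 genes 0.29 for *Kdm5a* and *Kdm5b* and 0.26 for *Kdm5b* and *Kdm5c*. Across the families *Kdm1b* had 0.44 with *Kdm5a* and 0.41 with *Kdm5b*. The indices with the most alike genes are the highest out of 21933. No usual index for a pair of genes stands beside those among the 5, so these cannot be called high or low.

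The genes of other histone lysine demethylases and of known partners were read in the same way. Of 17 other demethylase genes 15 had a site within 1 kb of the TSS, the exceptions being *Kdm4c*, an H3K9 and H3K36 demethylase, and *Uty*, the Y paralogue of *Kdm6a*. Of 15 partners of LSD1 and LSD2, such as the CoREST scaffold *Rcor1*, 13 had one, and *Phf21a* and *Gfi1b* did not. All 8 partners of KDM5 had one. Such a site was found in 63.9% of all protein-coding genes and 93.0% of island genes. An island was within 1 kb of the start in 13 of the 17, 13 of the 15 and 7 of the 8. *Kdm4c*, *Uty*, *Phf21a* and *Gfi1b* had none. Only the most upstream start of each listed gene was read. Over the gene and its 10 kb flanks *Kdm4c* had 6 sites, *Phf21a* 29 and *Gfi1b* 3. *Uty*, on Y like *Kdm5d*, had no site over its whole locus. A site-free start between 2 sites was found in 8 of the 17, 6 of the 15 and 3 of the 8, and a covered start in 4, 5 and 1. The shares were 13.7% and 39.5% over protein-coding genes, and 23.6% and 56.6% over island genes. These counts were not tested. Median body coverage was 6.28%, 6.51% and 6.27%, against 4.60% in the 5 genes. It was 4.43% over protein-coding genes and 7.73% over island genes. The listed genes were not matched for length. *Hdac1* and *Hdac2* are on both partner lists.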

How the data were processed

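H3K4me1 ChIP-seq was performed in NG3 cells, in 12 ChIP libraries of 6 conditions and 2 inputs. The authors used Trim Galore on the reads, BWA with mm10 for alignment, SAMtools for filtering and Picard for merging replicates, and took broad peaks from MACS2. Versions and thresholds are not given in the sources used here. The submitters' processing notes also name deepTools and DESeq2, whose results are not in the table. The deposited values are base positions where each site begins and ends, in 1 set over all samples, with no count, height or p-value. The table gives no depth of any library, and the minimum number of raw reads that the methods aimed at was not used here. The table's starts count from 0, and those printed here from 1.

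A set pooled over the time points holds sites of every condition and cannot show in which libraries a site was found. Neighbouring sites can be parts of 1 broad region that the caller split.

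Python 3.11.15, numpy 2.4.6 and numba 0.67.0 served to compute overlaps (at least 1 bp), gaps and coverage, and figures drawn with matplotlib 3.10.9. GENCODE M21 gave the TSSs, the most upstream per gene being the reference for all distances. CpG islands were called on repeat-masked GRCm38.p6 (17 per CpG, -1 per other base, over 200 bp, GC of at least 50%, observed to expected CpG over 0.6), which gave 16196 islands. A site was placed in an exon or intron of the principal transcript by its centre. The functions were tested on simulated data.

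Named genes were the 5 demethylase genes, *Kdm5d*, genes starting within their loci, listed genes without a site near the TSS, and the 2 genes most alike to each by Jaccard index. *Rcor1*, *Hdac1*, *Hdac2*, *Kdm6a* and *Mgat4e* are named outside this rule. The genes and lists were chosen with earlier results of these data known. No test was made, since the table has no value per sample. Alternatives concerned the TSS, site width, merging, window, flank, overlap, island length and start of the body.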

Additional observations from a re-analysis of the deposited data

How the results depend on the processing

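Of 64 recomputed values, 41 stayed within the limits set for them and 23 moved. A site within 1 kb of the TSS was found in 5 of 5 genes under every alternative run for it, and 3 starts stayed free with the principal TSS and with sites of at least 500 bp. The count of free starts between 2 sites fell from 1 to 0 when sites under 500 bp were left out, and to 0 with sites within 1 kb of each other merged, since the upstream site of *Kdm1b* is 232 bp wide and its gap 446 bp. With sites of at least 500 bp, 22 of the 44 sites remained and 6.70% of the body bases of the 5 genes together were covered, against 8.15%. With the body read from the TSS this was 9.59%. The free stretch at *Kdm1a* grew to 32781 bp and that at *Kdm1b* to 3632 bp with sites of at least 500 bp. *Kdm5c* kept 1 site with flanks of 5 kb and 20 kb. An island of at least 500 bp was found at 4 of the 5 starts, that of *Kdm5c* being 380 bp.

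No paired analysis was possible because libraries and replicates have no values of their own in the pooled set. No replicate was left out, and nothing is stated on the effect of dTAG on these genes. Without heights, a narrow site cannot be weighed against a wide one.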
